A study of Mus musculus with 18 samples.

Results

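Large intestine (LI) Lgr5+ cells assigned by low GFP to the region beyond the crypt base border (row >3) were compared with border cells. There were 3 libraries on each side, or 6 of the 18 libraries of the series. Position and movement of the cells were not measured in these libraries. The members were taken from the sample titles as LI cells with low GFP (row >3) and LI cells with medium GFP (border), and libraries with the same replicate number were treated as a pair. All cells came from untreated Lgr5-eGFP-IRES-CreERT2 mice, which the labels give as C57BL/6 aged 8 to 20 weeks and the study's methods as of mixed or C57BL/6 background over a wider range of ages, a knock-in line in which GFP and an inducible Cre are made from the Lgr5 locus and which is known for patchy expression, so that only GFP-positive crypts contribute. Dissociated crypt cells were cleared of dead cells and sorted by flow cytometry as EPCAM-positive cells at a given level of GFP, and bulk RNA was sequenced. The LI centre libraries (high GFP, n = 3) served as the starting point of the same gradient, and the small intestine (SI) row >3 and border libraries (n = 3 each) as the other site. The sources used here do not say which mouse stands behind each replicate number. Where replicate number is a block in the fit, p values measure the spread between the fitted libraries that is left after this block. They do not measure a known spread between mice.

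Stem cells at the crypt base divide under Wnt signals from the niche, and R-spondins enhance these signals through the receptor Lgr5. Cells that are displaced upwards lose Wnt input and begin to take on either a secretory fate, favoured where Notch signalling is off, or an absorptive fate. In the colon, the secretory cells include goblet cells, which make mucus, enteroendocrine cells, tuft cells, which sense the lumen, and deep crypt secretory cells, which lie between the stem cells, whereas colonocytes take up salt and water.

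The 6 libraries held between 15312877 and 26477935 reads counted on genes, and levels are given as CPM, each library's counts scaled to a common total after TMM scaling. Mitochondrial transcripts took 24.7 to 24.9% of the counts in border libraries and 19.8, 26.8 and 25.4% in row >3 replicates 1, 2 and 3. All LI replicate 2 libraries carried counts of Y-linked genes (3096 to 5374), against at most 5 in the other LI libraries. Deviations from the group means were shared by border and row >3 libraries of the same number (r = 0.479, 0.508 and 0.677 across 11333 genes) and not by those of different numbers (r between -0.476 and -0.0506). Deviations cancel within a group, so positive same-number values make the others negative on average. The negative values are thus no separate support for the pairing. The SI replicate 3 libraries stood apart, with 30.2 to 32.5% mitochondrial counts against 17.2 to 20.8% in the other SI libraries, and the comparison of the step between the sites is given with and without them. In each LI group, replicate 1 differed most from the others, by chi-square per degree of freedom between libraries. In row >3 its values were 98.5 and 108, against 26.7 between replicates 2 and 3. The same values were 33.2 and 66.8 against 14.5 in border, and 51.8 and 74.0 against 26.0 in centre libraries. Row >3 replicate 1 also had the fewest genes detected of the 6 libraries (16843). The epithelial marker *Epcam*, used in the sort, had 833, 1139.9 and 1269.8 CPM in row >3 and 796, 1035 and 1125 CPM in border replicates 1, 2 and 3, and this order of libraries is kept for all values below. *Lgr5*, whose locus drives the GFP used for sorting, had 6.72, 24.1 and 13.5 CPM in row >3 and 83.9, 76.8 and 61.3 CPM in border libraries. Its level follows from the gate and is given as a check of the labels only.

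Which genes differ between row >3 and border cells was tested on the 9 LI libraries with edgeR (quasi-likelihood test, replicate number as a block). The adjusted p values below are from this test after Benjamini-Hochberg correction unless another is named. Of 24761 genes tested, 685 (2.77%) had an adjusted p under 0.05. Of these, 404 were higher in row >3 cells (1.63% of the genes tested) and 281 were lower (1.13%). Most genes changed little: among the 12086 genes with a mean of at least 30 normalised counts over the 6 libraries, of which 401 rose (3.32%) and 273 fell (2.26%), the median absolute log2 fold change was 0.19. Of the 685 called genes, 143 changed by more than 1 on the log2 scale, 44 upwards and 99 downwards. The row >3 and border libraries did not overlap in 2264 (18.7%) of the 12086 genes, and this share is the background for each statement on overlap below. The 3.32% that rose and the 2.26% that fell are the background for each count of called list members below. In 677 of the 685 called genes, all 3 pairs moved in the same direction. The split between directions depended on the scaling, since scaling by library size only gave 599 calls, of which 216 were higher and 383 lower.

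**Figure D1:**
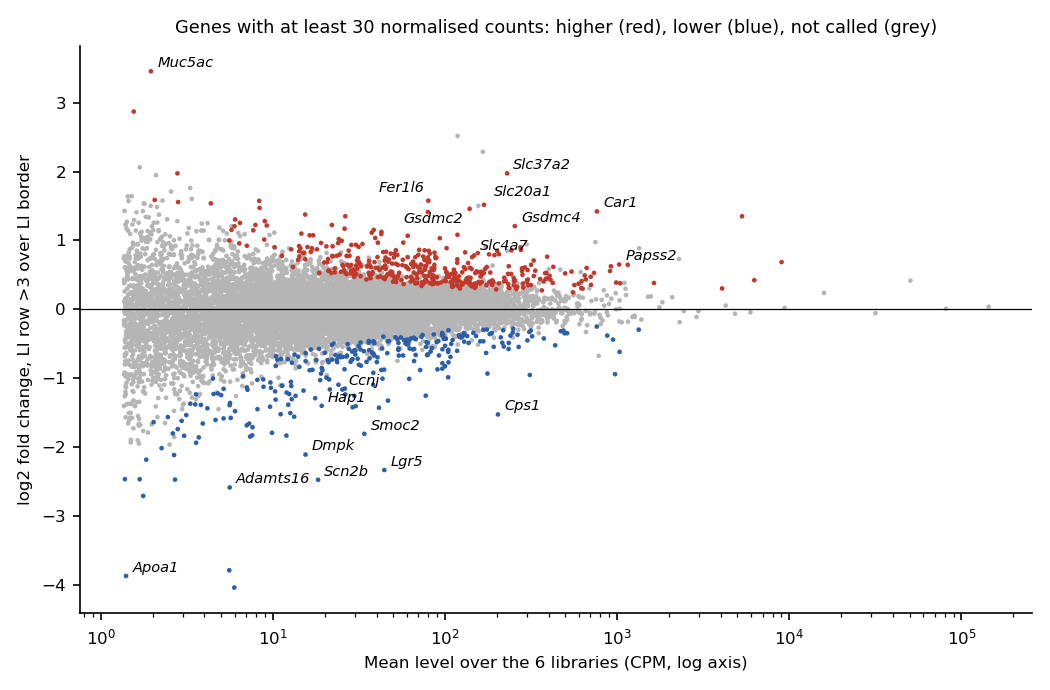
Log2 fold change of LI row >3 over LI border (vertical axis) against the mean level over the 6 libraries in CPM (horizontal log axis) for the 12086 genes with at least 30 normalised counts, with 401 higher genes in red, 273 lower genes in blue and genes that were not called in grey. Called genes lie on both sides of 0 at all levels, and the falls beyond 1 outnumber the rises.

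The number of calls depended on the tool and the design of the fit. Without the replicate block the same 9 libraries gave 24 calls, with the 18 libraries of both sites 18 calls, and with the 6 compared libraries alone 0 calls (3488 genes at an unadjusted p under 0.05), whereas DESeq2 with the block gave 1341 on the 9 libraries and 833 on the 6. All 685 genes kept their sign in the fits without the block, with 18 libraries, without border replicate 1 and without border replicate 3, and 683 of the 685 did with DESeq2 on the 9 libraries. The genes were chosen by their calls in largely the same libraries, and 677 moved in the same direction in all 3 pairs. Kept signs are therefore no separate support for the calls. Leaving out border replicate 3 left 20 calls and border replicate 1 left 47, and leaving out border replicate 2 or row >3 replicate 3 left 245 and 227. Without any single border library, or without row >3 replicate 3, fewer members of most gene lists below were called. Counts left in some of these fits are given with the lists. A fit that is not named with a list did not necessarily leave its count unchanged. Without single centre libraries the counts of some lists also moved, and this is given where it was by more than 1.5 times.

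**Figure D2:**
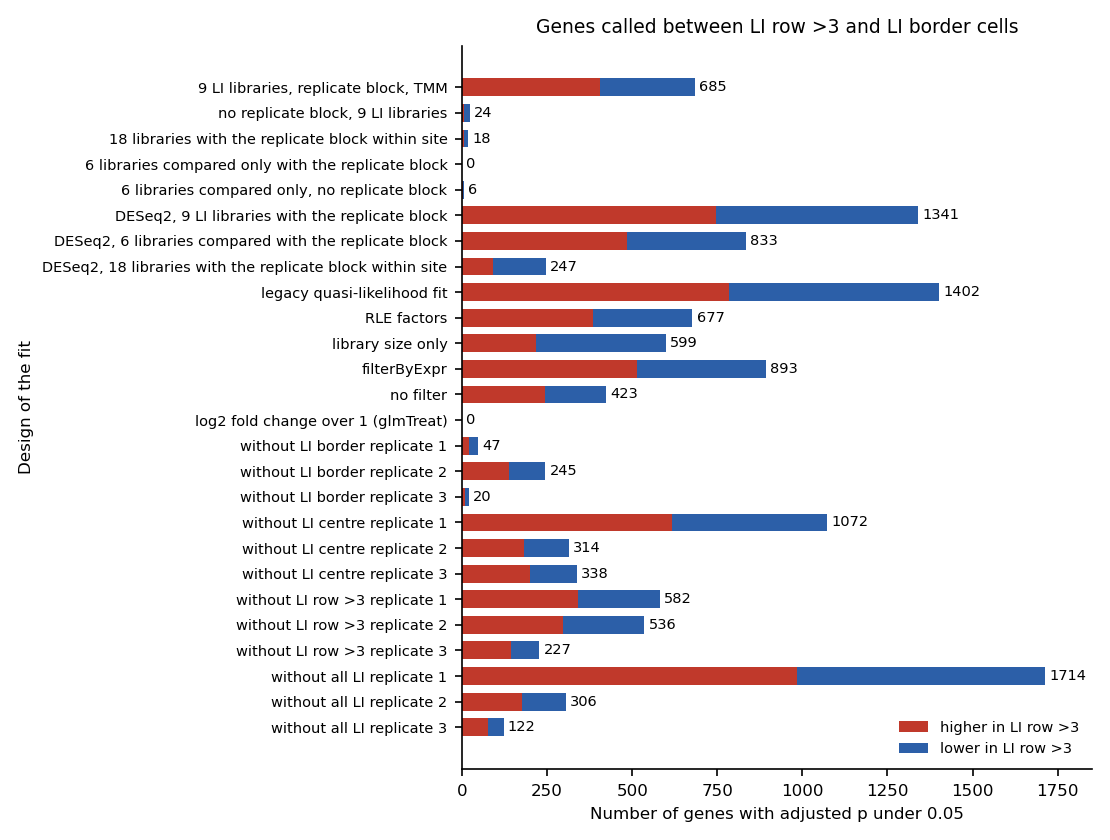
Number of genes with an adjusted p under 0.05 between LI row >3 and LI border cells in each fit, split into genes higher (red) and lower (blue) in row >3 cells. The bars run from 0 with the 6 compared libraries and the block to 1714 without all LI replicate 1 libraries, beside 685 in the fit used here.

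The genes that rose most included the transporter genes *Slc37a2* and *Slc20a1* and the gasdermin gene *Gsdmc2*. *Slc37a2*, a sugar-phosphate carrier (chr9:37227585-37255738 in GRCm38), had 409, 296 and 383 CPM in row >3 and 58.0, 113 and 118 CPM in border libraries. Every row >3 library lay above every border library, a separation seen in 18.7% of the genes at the count minimum. The log2 fold change was 1.97 ± 0.28 (adjusted p = 0.022). Here and below, ± gives the SE from the fit of all LI libraries, centre libraries included, unless another fit is named. This SE does not rest on the 3 pairs alone. *Slc20a1*, a sodium-phosphate cotransporter, had 360.4, 185 and 207 CPM against 82.7, 90.7 and 84.3 CPM (log2 fold change 1.52 ± 0.26, adjusted p = 0.0332). The rise was largest in replicate 1 for both transporters. The smallest adjusted p among rising genes belonged to *Gsdmc4*, a member of the gasdermin C family of pore-forming proteins (chr15:63891264-63912297), with 317, 304 and 442 CPM against 119, 149 and 195 CPM and a log2 fold change of 1.21 ± 0.10 (adjusted p = 3.88e-04). Its neighbour *Gsdmc2* (chr15:63824346-63845177) had 227, 161 and 222 CPM against 58.7, 72.1 and 92.6 CPM (log2 fold change 1.46 ± 0.14, adjusted p = 8.27e-04). *Gsdmc3*, looked up after these were seen, changed by 1.22 ± 0.15 (adjusted p = 0.00237). The gasdermin C genes are close paralogues, so the share of reads that belongs to each is uncertain.

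Other rises were in genes of widely differing level. *Papss2*, which makes the activated sulphate used to sulphate mucins, had 1128, 1154 and 1483 CPM in row >3 and 679, 813 and 903 CPM in border libraries (log2 fold change 0.65 ± 0.06, adjusted p = 8.96e-04). *Slc4a7*, a sodium-bicarbonate cotransporter, had 376, 385 and 455 CPM against 208, 249 and 292 CPM (log2 fold change 0.71 ± 0.07, adjusted p = 8.27e-04). *Hao2*, a peroxisomal hydroxyacid oxidase, changed by 0.85 ± 0.09 (adjusted p = 0.00125), and *Scin*, which encodes the actin-severing protein scinderin, by 1.41 ± 0.16 (adjusted p = 0.00207). *D6Ertd527e* was low in all libraries, with 9.33, 1.57 and 1.74 CPM against 2.98, 0.578 and 0.694 CPM, and changed by 1.56 ± 0.32 (adjusted p = 0.0226).

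Some of the largest fitted rises rested on 1 pair. *Muc5ac*, a gel-forming mucin best known from the stomach and airways, had 10.7, 0.0785 and 0.0485 CPM in row >3 and 0.918, 0 and 0.0386 CPM in border libraries, so nearly all of its counts came from replicate 1. Its log2 fold change of 3.45 (adjusted p = 0.0137) became 0.99 without row >3 replicate 1 and 1.38 without border replicate 1, and neither of these passed (adjusted p = 0.953 and 0.944). *Sptbn4*, a spectrin gene, had 6.40, 0.706 and 1.07 CPM against 0.229, 0.578 and 0.347 CPM, and its log2 fold change of 2.87 (adjusted p = 0.0305) became 1.73 without row >3 replicate 1 and 1.18 without border replicate 1 (adjusted p = 0.421 and 0.682). *Trim72*, a membrane-repair gene, went from 1.54 (adjusted p = 0.0415) to 0.82 without row >3 replicate 1 (adjusted p = 0.274).

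The falls included genes whose level stepped down from the centre over the border to row >3. *Smoc2*, a matricellular protein gene used as a crypt stem cell marker (chr17:14279506-14404790), had 92.9, 89.2 and 89.1 CPM in centre, 49.2, 54.5 and 54.8 CPM in border and 9.83, 20.3 and 15.3 CPM in row >3 libraries. The 3 groups did not overlap, and the fall from border to row >3 had the smallest adjusted p of all falling genes (log2 fold change -1.81 ± 0.16, adjusted p = 8.15e-04). *Scn2b*, which encodes a beta subunit of voltage-gated sodium channels, had 31.3, 30.8 and 31.0 CPM in border and 2.15, 8.20 and 6.35 CPM in row >3 libraries (log2 fold change -2.47 ± 0.24, adjusted p = 8.27e-04). Its border libraries lay close together and its row >3 libraries far apart, with the lowest value in replicate 1. *Cps1*, the mitochondrial carbamoyl-phosphate synthetase that feeds the urea cycle, had 241, 345 and 307 CPM against 57.0, 164 and 105 CPM (log2 fold change -1.53 ± 0.16, adjusted p = 0.00125), again with the lowest row >3 value in replicate 1. *Dmpk*, a protein kinase gene, fell from 32.6, 23.4 and 19.9 CPM to 2.24, 9.34 and 5.43 CPM (log2 fold change -2.11 ± 0.33, adjusted p = 0.00635). *Adamts16*, a secreted metalloprotease gene, changed by -2.59 ± 0.43 (adjusted p = 0.00759) and by -3.96 without row >3 replicate 2, its highest row >3 library.

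Other large falls were in genes of low level. *Fut9*, a fucosyltransferase that makes the Lewis x glycan, had 2.34, 2.51 and 4.36 CPM in border and 0, 0.471 and 0.921 CPM in row >3 libraries (log2 fold change -2.71 ± 0.50, adjusted p = 0.013). *Amica1*, a junctional adhesion protein gene, had 5.83, 4.63 and 3.36 CPM against 0.320, 1.26 and 0.824 CPM, *Cux2*, a homeobox gene, 3.85, 1.35 and 1.89 CPM against 0.457, 0.549 and 0.194 CPM, and *Trim38*, a ubiquitin ligase gene of innate immunity, 4.41, 3.40 and 3.01 CPM against 0.549, 0.824 and 1.36 CPM. The adjusted p values of the last 3 were 0.0108, 0.0357 and 0.022. *Pstpip1*, an actin-linked adaptor of blood cells, changed by -2.18 ± 0.53 (adjusted p = 0.0492). *Nefl*, a neurofilament gene, changed by -2.47 (adjusted p = 0.0411) and by -3.90 without row >3 replicate 2. It overlaps *Nefm* on the opposite strand, and the strand setting of the counting is not given in the sources used here.

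A few falls rested on single libraries. *Apoa1*, an apolipoprotein of the SI and liver, had 0.505, 0.193 and 7.21 CPM in border and 0.229, 0.0392 and 0.242 CPM in row >3 libraries, and its change of -3.87 (adjusted p = 0.0246) became -1.23 without border replicate 3 and -1.86 without row >3 replicate 3 (adjusted p = 0.811 and 0.741). *Cald1*, a smooth muscle and stromal actin-binding protein gene, had 8.44, 3.08 and 1.54 CPM against 0.731, 1.14 and 1.07 CPM, and its change of -2.12 (adjusted p = 0.0375) became -1.19 without border replicate 1 (adjusted p = 0.388). *Ttn* and *Myh4*, which encode titin and a myosin of striated muscle and were looked up after their values were seen, had 45.0 and 54.6 CPM in centre replicate 1 and 33.4 and 31.2 CPM in border replicate 1, against at most 0.385 CPM in the other border and 0.453 CPM in the other centre libraries, and the row >3 libraries held at most 2.19 CPM.

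Of the stem cell and Wnt target genes, *Lgr5*, which the gate selects on, is left out of the counts and levels given here. Of the 26 other members at or above the count minimum, 16 fell, none rose and 10 were not called, with a median log2 fold change of -0.64, against 0.0117 over all genes at that minimum, and the 3 members below the minimum were not called. The summed level of the list was 2123 to 2913 CPM in row >3, 3601 to 3766 CPM in border and 4307 to 4479 CPM in centre libraries, without overlap. *Ascl2*, the transcription factor that maintains crypt stem cells, had 9.91, 11.2 and 13.6 CPM in border and 2.19, 4.24 and 3.10 CPM in row >3 libraries (log2 fold change -1.85 ± 0.22, adjusted p = 0.00231). *Axin2*, the feedback inhibitor most often used as a Wnt readout, had 142, 107 and 103 CPM against 62.3, 67.8 and 60.3 CPM (log2 fold change -0.87 ± 0.10, adjusted p = 0.0019). The row >3 libraries were nearly level for *Axin2*, and it was border replicate 1 that stood higher than the other border libraries.

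Among receptors and surface proteins, *Cd44* had 382, 456 and 381 CPM in border and 140.4, 298 and 208 CPM in row >3 libraries (log2 fold change -0.95 ± 0.14, adjusted p = 0.0039). *Ephb3*, a receptor that keeps cells at the crypt base, had 91.8, 79.3 and 77.5 CPM against 34.8, 46.3 and 41.9 CPM (log2 fold change -1.01 ± 0.12, adjusted p = 0.00231). Its partner *Ephb2* did not follow, with 260.5, 211 and 196 CPM against 234, 217 and 205 CPM and a log2 fold change of -0.02 ± 0.07 (adjusted p = 0.981). *Rnf43*, a ubiquitin ligase that removes Frizzled receptors, fell (-0.58 ± 0.09, adjusted p = 0.00635), and for *Znrf3*, which has the same role, the estimate was -0.68 ± 0.18 (adjusted p = 0.07). *Lrig1*, an inhibitor of ErbB receptors, and *Rgmb*, a BMP co-receptor, fell by similar amounts (-0.63 ± 0.10 and -0.67 ± 0.12, adjusted p = 0.00689 and 0.0101). The R-spondin receptor *Lgr4* had 105, 133 and 137 CPM against 107, 124 and 131 CPM (log2 fold change -0.05 ± 0.08, adjusted p = 0.858) and the stem cell marker *Prom1* 182, 167 and 194 CPM against 168, 191 and 230.1 CPM (log2 fold change 0.11 ± 0.08, adjusted p = 0.633).

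Of the transcriptional and growth regulators, *Myc* fell from 70.7, 63.3 and 80.1 CPM to 49.0, 52.0 and 55.7 CPM (log2 fold change -0.45 ± 0.09, adjusted p = 0.0221), *Sox9* changed by -0.41 ± 0.07 (adjusted p = 0.00963) and *Tcf7*, a DNA-binding partner of beta-catenin, by -0.66 ± 0.15 (adjusted p = 0.0406). The RNA-binding protein gene *Msi1* changed by -1.11 ± 0.20, the growth factor binding protein gene *Igfbp4* by -1.56 ± 0.26, *Cdca7* by -0.61 ± 0.10 and *Cdk6* by -0.66 ± 0.10 (adjusted p = 0.011, 0.00786, 0.00906 and 0.00635). *Ccnd1*, a cyclin gene and Wnt target, was estimated at -0.38 ± 0.10 (adjusted p = 0.0692). *Olfm4*, a stem cell marker of the SI, was at most 0.899 CPM in each of the 6 libraries, and *Lef1* and *Notum* were below 1 CPM. Without border replicate 3, 3 of the 26 members were called, and without border replicate 1 or without the block 4. Without border replicate 2 it was 12, and without row >3 replicate 3 it was 9. None was called in a fit of the 6 libraries alone with the block, 1 in that fit without the block and 1 with all 18 libraries, whereas without all 3 LI libraries numbered 1 there were 20 lower and 1 higher. Their median lay between -0.74 and -0.50 in the fits tried.

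**Figure D3:**
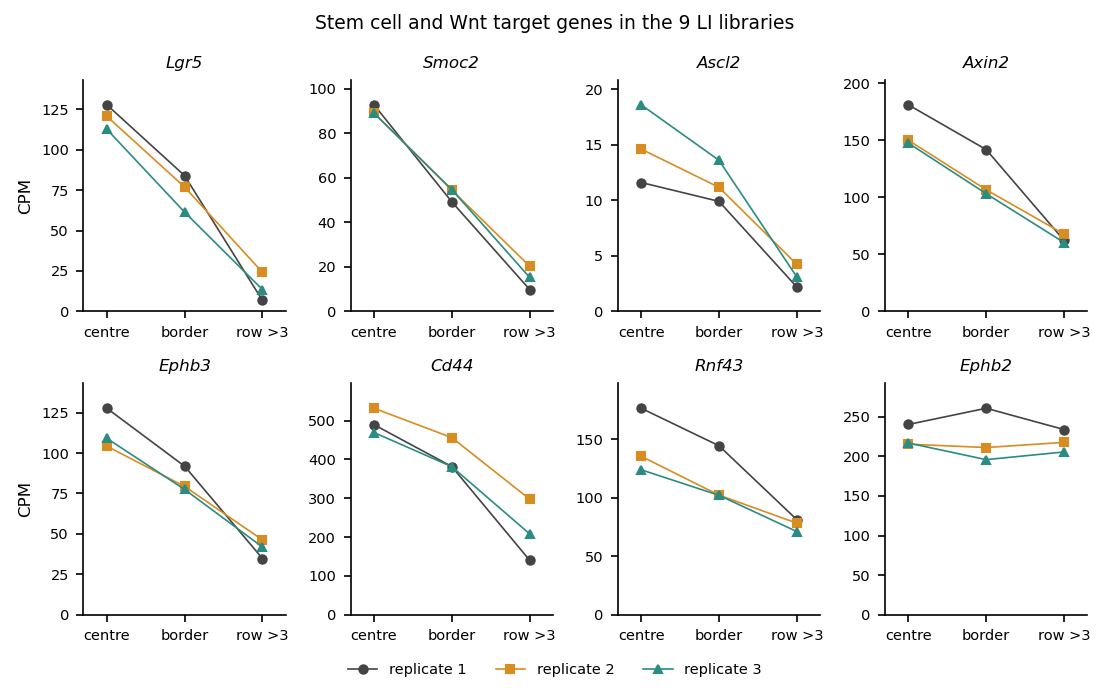
Level in CPM (vertical axes from 0) of 8 stem cell and Wnt target genes in centre, border and row >3 cells of the LI, with 1 symbol and line per replicate number. *Smoc2*, *Ascl2*, *Axin2*, *Ephb3*, *Cd44* and *Rnf43* step down in every replicate from border to row >3, as does *Lgr5*, which the gate selects on, whereas *Ephb2* stays within 196 to 260.5 CPM in these libraries.

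To show the start regions of Wnt targets that fell together, promoter windows from 250 bases before to 50 bases after the transcription start were taken from RefSeq (GRCm38.p6). Windows of *Axin2* (chr11:108920099-108920398, plus strand) and *Ascl2* (chr7:142969215-142969514, minus strand) are given 5′ to 3′, with the first base of the transcript in capitals.
Axin2: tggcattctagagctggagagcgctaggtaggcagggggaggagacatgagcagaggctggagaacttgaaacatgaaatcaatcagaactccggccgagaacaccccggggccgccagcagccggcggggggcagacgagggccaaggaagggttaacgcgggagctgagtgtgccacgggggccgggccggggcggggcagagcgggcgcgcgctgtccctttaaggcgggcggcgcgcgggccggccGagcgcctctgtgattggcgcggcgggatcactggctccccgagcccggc
Ascl2: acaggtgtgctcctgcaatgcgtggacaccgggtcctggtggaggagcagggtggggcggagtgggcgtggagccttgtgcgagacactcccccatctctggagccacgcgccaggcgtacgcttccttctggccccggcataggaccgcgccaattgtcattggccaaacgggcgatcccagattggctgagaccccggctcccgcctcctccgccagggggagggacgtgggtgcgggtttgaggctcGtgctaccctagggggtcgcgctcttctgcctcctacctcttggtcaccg
The heptamers CTTTGAT and CTTTGAA, the core bound by TCF/LEF factors, were searched on both strands. In the whole list, they were in 2 of 19 genes with a window (10.5%) and in 0 of the 11 called members with a window, against 2671 of 27025 genes (9.88%). No match was in either printed window, which says only that these letters are not in these windows.

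Of 24 goblet cell genes measured, 14 rose, none fell and 10 were not called, and the median log2 fold change was 0.82. In bulk libraries, more cells of a type and more RNA per cell cannot be told apart. The gel-forming mucin *Muc2* had 13374, 8582 and 11422 CPM in row >3 and 6648, 5793 and 8277 CPM in border libraries (log2 fold change 0.69 ± 0.09, adjusted p = 0.00242). *Fcgbp*, a mucus protein that binds immunoglobulin G, had 8650.1, 5127 and 9058 CPM against 2361, 2535 and 4167 CPM (log2 fold change 1.35 ± 0.17, adjusted p = 0.0124). Both genes were higher in each row >3 library than in any border library. *Fer1l6*, a ferlin family gene, changed by 1.58 ± 0.21 and *Capn9*, a calpain protease of the digestive tract, by 1.57 ± 0.21 (adjusted p = 0.0031 and 0.0031).

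Of the goblet list members that regulate the programme, *Atoh1*, the transcription factor that commits cells to the secretory lineage, had 136, 101 and 158 CPM in row >3 and 52.1, 64.8 and 102 CPM in border libraries (log2 fold change 0.89 ± 0.14, adjusted p = 0.00551). The groups overlapped narrowly, since row >3 replicate 2 lay just below border replicate 3, and *Atoh1* was higher in each pair. *Spdef*, which drives goblet maturation downstream of *Atoh1*, changed by 0.76 ± 0.18 (adjusted p = 0.0443). *Creb3l1* and *Creb3l4*, which encode factors that expand the secretory apparatus, changed by 0.42 ± 0.09 and 0.83 ± 0.15, and *Ern2*, the stress sensor of mucus cells, by 0.58 ± 0.09 (adjusted p = 0.0235, 0.0117 and 0.00583). *Foxa3*, a forkhead transcription factor gene of goblet cells, had 60.1, 44.8 and 45.1 CPM in row >3 and at most 40.7 CPM in border libraries and was not called (log2 fold change 0.47 ± 0.15, adjusted p = 0.122). *Bcas1*, *Rep15*, *Ramp1*, *Sytl2* and *Galnt12* also rose, by 0.45 to 1.17.

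Several abundant goblet products were higher in each pair without passing the test. *Zg16*, a lectin of the mucus layer, had 255, 79.4 and 264 CPM in row >3 and 12.3, 30.6 and 69.3 CPM in border libraries (log2 fold change 2.52 ± 0.65, adjusted p = 0.162). *Tff3*, a trefoil peptide, had 274, 154 and 251 CPM against 47.5, 89.4 and 121 CPM (log2 fold change 1.5 ± 0.48, adjusted p = 0.239). The border libraries of both genes were far apart, with the lowest value in replicate 1. *Clca1*, a mucus-processing protease, was lower in each pair (-0.78 ± 0.20, adjusted p = 0.0626), and at an unadjusted p under 0.05 all 24 members passed, 23 of them higher. Without border replicate 3 a single member was called, without border replicate 1 also a single one, and the list median was 0.84 and 0.73.

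Deep crypt secretory cell genes followed the goblet genes in part. Of 7 members, 4 rose, 1 fell and 2 were not called (median 0.60), none was called without any single border library, 3 without any single row >3 library, and 1 and 3 without centre replicates 2 and 3. The risen members included the Notch ligands *Dll1* and *Dll4*, described below. *Kit* (0.47 ± 0.08, adjusted p = 0.0116), which encodes the receptor tyrosine kinase of these cells, rose together with *Egf* (0.83 ± 0.18, adjusted p = 0.0279), a growth factor they supply. *Reg4*, their most used marker, had 2972, 2235 and 3236 CPM in row >3 and 1291, 1606 and 2366 CPM in border libraries and was higher in each pair (log2 fold change 0.73 ± 0.21, adjusted p = 0.164). *Cd24a*, a surface protein shared with other crypt base cells, fell from 337, 343 and 405 CPM to 213, 288 and 337 CPM (log2 fold change -0.39 ± 0.08, adjusted p = 0.0231). Of 25 enteroendocrine genes tested, none was called by edgeR, 3 had an unadjusted p under 0.05 and 1 was called by DESeq2. Their median was 0.54 over the 11 members at the count minimum. *Chga*, a granin of hormone granules, had 16.3, 41.5 and 51.9 CPM against 4.50, 40.0 and 36.5 CPM, so replicate 1 was low in both groups. The Paneth cell list had 1 of 6 tested members at the count minimum, *Ang4* (4.48, 2.51 and 12.1 CPM against 0.138, 0.964 and 8.99 CPM, adjusted p = 0.275), and no member was called by edgeR or DESeq2, with 1 at an unadjusted p under 0.05. Lysozyme (*Lyz1*) was at most 0.0785 CPM.

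Of 25 tuft cell genes measured, 12 fell, none rose and 13 were not called, and the median log2 fold change was -0.82 over 20 members at the count minimum. Their summed level was 412 to 612 CPM in border and 242 to 282 CPM in row >3 libraries. No member was called without border replicate 3, whereas 3 were without border replicate 1 and 7 without row >3 replicate 3, with medians of -0.84, -0.89 and -0.99. *Dclk1*, the microtubule-associated kinase that marks tuft cells, had 120.2, 96.3 and 75.3 CPM in centre, 170.4, 115 and 113 CPM in border and 82.7, 75.6 and 72.0 CPM in row >3 libraries. The border libraries were the highest of each replicate, and the fall to row >3 was -0.77 ± 0.10 on the log2 scale (adjusted p = 0.00282). *Trpm5*, the cation channel of taste and tuft cells, had 65.0, 46.3 and 45.5 CPM in border and 22.9, 29.3 and 20.6 CPM in row >3 libraries (log2 fold change -1.10 ± 0.15, adjusted p = 0.00348). The taste G protein gene *Gnat3* (-1.51 ± 0.25), the interleukin-25 receptor gene *Il17rb* (-1.83 ± 0.27), the lectin gene *Siglecf* (-1.71 ± 0.23) and *Chat* (-1.62 ± 0.32), which makes acetylcholine, fell further (adjusted p = 0.00847, 0.00515, 0.00287 and 0.0207). The eicosanoid enzymes *Ptgs1* and *Alox5* changed by -1.17 ± 0.24 and -0.72 ± 0.17 (adjusted p = 0.0239 and 0.0403). For *Pou2f3*, the transcription factor that specifies tuft cells, the estimate was -0.58 ± 0.19 (adjusted p = 0.135).

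Whether the step from border to row >3 differed from the step from centre to border was tested in a single contrast over the 9 LI libraries. Of 24761 genes, 7 (0.0283%) were called, all with a more negative second step, and 1283 had an unadjusted p under 0.05. They included the tuft cell genes *Dclk1* and *Sh2d6* and the genes *Fyb*, *Matk*, *Hap1* and *Ccnj*. *Sh2d6*, an SH2 domain gene, had 32.7, 27.4 and 18.8 CPM in centre, 46.9, 33.4 and 28.2 CPM in border and 16.3, 19.7 and 12.7 CPM in row >3 libraries. The difference between its steps was -1.63 ± 0.24 (adjusted p = 0.0487), and that of *Dclk1* was -1.22 ± 0.17 (adjusted p = 0.0466). *Ccnj*, a cyclin gene, had 28.2, 24.9 and 20.1 CPM, 41.3, 37.6 and 26.4 CPM and 16.3, 18.4 and 12 CPM in the same order (difference -1.68 ± 0.20, adjusted p = 0.0339). *Hap1*, which encodes a partner of huntingtin, had 28.4, 16.2 and 10.4 CPM, 49.3, 22.7 and 12.3 CPM and 16.4, 9.65 and 4.99 CPM (difference -1.95 ± 0.25, adjusted p = 0.0339). The adaptor gene *Fyb* differed by -1.46 ± 0.20 (adjusted p = 0.0366) and the kinase gene *Matk* by -1.83 ± 0.27 (adjusted p = 0.0487). In all 7 genes the border library was the highest of each replicate. No gene was called without the block, with all 18 libraries, without any single border or centre library, or without row >3 replicate 3, while 16 were without row >3 replicate 1, and DESeq2 gave 75.

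*Fyb* and *Matk* are also known from blood cells, so immune cell markers were read beside them. The summed level of 19 immune markers was 12.1 to 13.5 CPM in row >3 and 32.7, 17.3 and 18.9 CPM in border libraries, with 4 at the count minimum and 1 called, *Rac2* (8.67, 6.10 and 6.17 CPM in border, 1.74, 3.14 and 2.04 CPM in row >3; adjusted p = 0.0109), and none without border replicate 1, border replicate 3 or row >3 replicate 3. *Ptprc*, the pan-leukocyte marker CD45, had 13.9, 4.11 and 7.98 CPM against 2.19, 2.90 and 5.57 CPM (adjusted p = 0.0853). The T cell genes *Cd3d*, *Cd3e*, *Cd3g*, *Cd8a* and *Cd8b1* and the macrophage genes *Csf1r* and *Lyz2* were at most 0.386 CPM in each of the 6 libraries. Of 16 stromal, endothelial, muscle and glial markers, summed to 21.2, 4.50 and 5.90 CPM in border and 2.79 to 4.83 CPM in row >3 libraries, 1 was called, *Col1a1* (6.10, 0.257 and 0.0771 CPM against 0.229, 0.196 and 0.0485 CPM), and its change of -3.64 (adjusted p = 0.0182) became -1.86 without border replicate 1 and -0.66 without row >3 replicate 1 (adjusted p = 0.899 and 0.953), and it was also not called without border replicate 3 or centre replicate 2. The part of such cells in the tuft gene values was not tested.

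**Figure D4:**
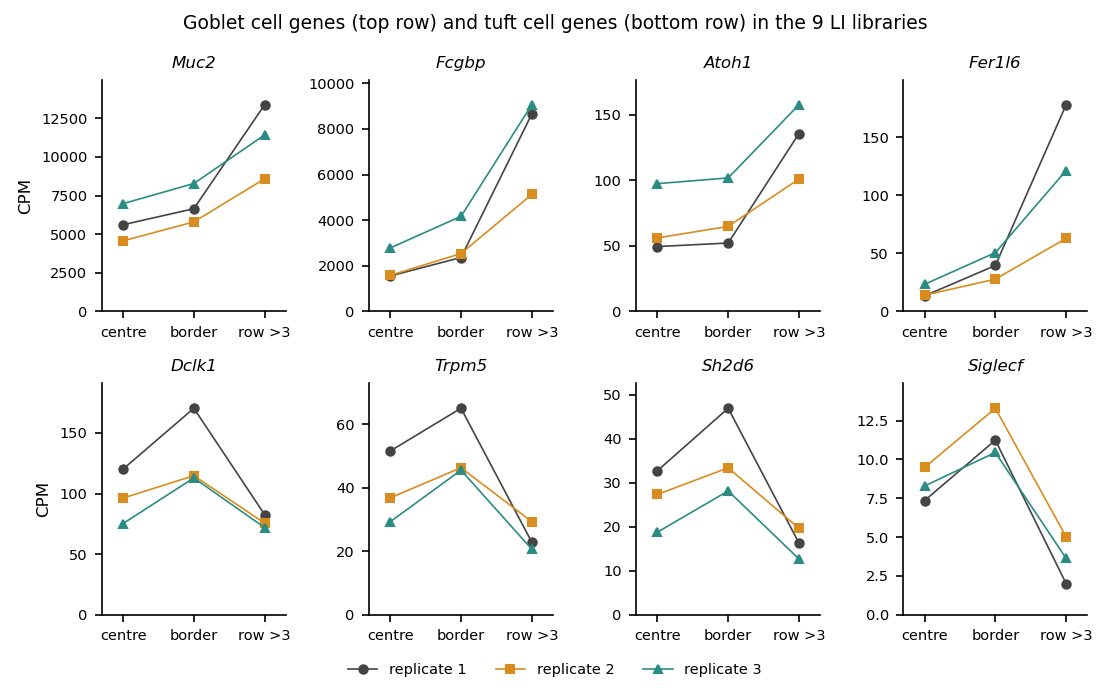
Level in CPM (vertical axes from 0) of the goblet cell genes *Muc2*, *Fcgbp*, *Atoh1* and *Fer1l6* (top) and the tuft cell genes *Dclk1*, *Trpm5*, *Sh2d6* and *Siglecf* (bottom) in centre, border and row >3 cells of the LI, with 1 symbol and line per replicate number. The goblet genes are highest in row >3 cells in every replicate, whereas the tuft genes are highest in border cells in every replicate.

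Of 30 colonocyte genes measured, 8 rose, 1 fell and 21 were not called, with a median log2 fold change of 0.52 over 27 members at the count minimum. *Car1*, a cytosolic carbonic anhydrase of the colon, had 798, 1088 and 1361 CPM in row >3 and 172, 589 and 566 CPM in border libraries (log2 fold change 1.42 ± 0.24, adjusted p = 0.0391). Border replicate 1 was low for this gene, and the groups did not overlap. Without border replicate 3 no member was called, and without border replicate 1, border replicate 2 or row >3 replicate 3 it was 2, 4 and 4. Without centre replicate 1 it was 14 and without centre replicate 2 or 3 it was 5. *Slc26a3*, the chloride-bicarbonate exchanger of the colon surface, changed by 0.85 ± 0.15 (adjusted p = 0.01), *Selenbp1*, a methanethiol oxidase gene, by 0.80 ± 0.10 (adjusted p = 0.00251) and *Lypd8*, which keeps bacteria from the epithelium, by 0.76 ± 0.13 (adjusted p = 0.00756). *Fam3b*, *Cldn23*, *Fabp2* and *Cdhr5* rose by 0.39 to 1.10. *Car4*, a membrane-bound carbonic anhydrase, fell from 101, 119 and 126 CPM to 62.9, 96.4 and 101 CPM (log2 fold change -0.42 ± 0.10, adjusted p = 0.0428). The surface marker *Krt20* had 30.4, 34.3 and 47.2 CPM against 11.6, 40.8 and 39.8 CPM, and its groups overlapped (log2 fold change 0.33 ± 0.38, adjusted p = 0.818), while *Guca2a*, which encodes guanylin, had 199.5, 171 and 289.7 CPM against 70.8, 121 and 181 CPM (log2 fold change 0.91 ± 0.22, adjusted p = 0.0721).

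Of 27 ion and water transport genes, 7 rose and 6 fell (median 0.18 over the 23 members at the count minimum). Of the 27, 3 were called without border replicate 1, 1 without border replicate 3 and 8 without row >3 replicate 3. Among genes of sodium uptake, *Scnn1a*, the alpha subunit of the epithelial sodium channel, had 182, 107 and 146 CPM in row >3 and 92.0, 76.9 and 102 CPM in border libraries (log2 fold change 0.68 ± 0.12, adjusted p = 0.0129). The mineralocorticoid receptor gene *Nr3c2* and *Hsd11b2*, which protects this receptor from glucocorticoids, rose with it (0.62 ± 0.09 and 0.86 ± 0.11, adjusted p = 0.00515 and 0.00231). *Scnn1b* was low, with 3.20, 3.30 and 5.48 CPM against 0.918, 2.89 and 2.97 CPM (adjusted p = 0.213), and *Scnn1g* was at most 0.235 CPM. The genes that fell included *Slc12a2*, the sodium-potassium-chloride cotransporter of the basolateral membrane, which had 1018, 1357 and 1341 CPM in border and 532, 1047 and 906 CPM in row >3 libraries (log2 fold change -0.62 ± 0.09, adjusted p = 0.00523), and the potassium channel genes *Kcnq1* and *Kcnn4* changed by -0.86 ± 0.10 and -0.47 ± 0.11 (adjusted p = 0.0019 and 0.045). *Slc12a2* overlapped between the groups, since row >3 replicate 2 exceeded border replicate 1. *Cftr*, the apical chloride channel, was estimated at -0.35 ± 0.12 (adjusted p = 0.151). The water channels *Aqp1* and *Aqp4* fell (-0.66 ± 0.13 and -1.01 ± 0.13, adjusted p = 0.0156 and 0.00248), whereas *Aqp8*, the water channel of surface colonocytes, had 15.4, 9.06 and 16.9 CPM against 1.88, 7.0 and 10.9 CPM (adjusted p = 0.117).

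**Figure D5:**
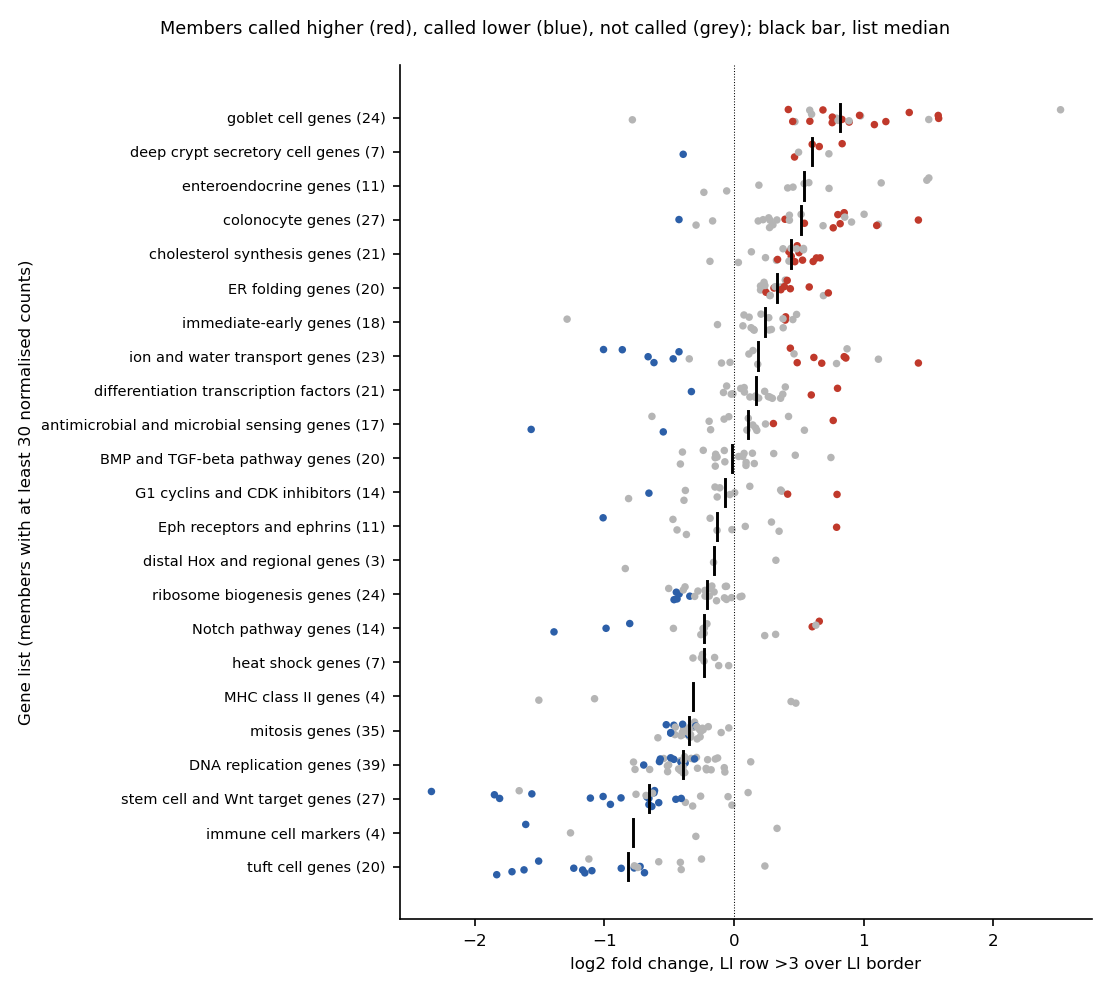
Log2 fold change of LI row >3 over LI border for the members at or above 30 normalised counts of each gene list with at least 3 such members (number in brackets, *Lgr5* included in the stem cell list), with members called higher in red, called lower in blue and not called in grey, and the list median as a black bar. Of the lists shown, goblet cell genes have the highest median (0.82) and tuft cell genes the lowest (-0.82).

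Of 21 cholesterol synthesis genes, 10 rose, none fell and 11 were not called, with a median of 0.44 and a range from -0.19 to 0.66. *Hmgcs1*, which makes the precursor of mevalonate, had 92.8, 125 and 149.5 CPM in row >3 and 69.0, 92.7 and 103 CPM in border libraries (log2 fold change 0.47 ± 0.08, adjusted p = 0.00695). *Insig1*, which holds back the pathway's transcription factors, changed by 0.66 ± 0.12 (adjusted p = 0.0112). *Msmo1*, *Fdps*, *Cyp51*, *Fdft1* and *Srebf2* also rose, by 0.34 to 0.64. *Cyp51* and *Fdft1* overlap *Akap9* and *Ctsb* on the opposite strand, so their reads are uncertain. No member was called without border replicate 3, border replicate 1 or row >3 replicate 3, where the medians were 0.47, 0.40 and 0.40, whereas 2 were called without border replicate 2 and 6 without centre replicate 2 or 3.

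Genes of protein folding in the endoplasmic reticulum behaved alike, with 8 of 20 higher, none lower and a median of 0.33, and all 20 estimates were above 0. No member was called without border replicate 1 or 3, 2 without border replicate 2 or centre replicate 2, 3 without centre or row >3 replicate 3, and 5 without row >3 replicate 2. *Xbp1*, the transcription factor of the unfolded protein response that secretory cells need, had 152, 126 and 159.8 CPM in row >3 and 66.7, 93.3 and 109.6 CPM in border libraries (log2 fold change 0.73 ± 0.13, adjusted p = 0.0113). The disulphide isomerase gene *Pdia3* changed by 0.41 ± 0.06 (adjusted p = 0.00599), *Herpud1*, which acts in the disposal of misfolded proteins, by 0.58 ± 0.12 (adjusted p = 0.0273), and the main chaperone gene *Hspa5* by 0.25 ± 0.06 (adjusted p = 0.0391). Heat shock genes of the cytosol, in contrast, had 0 of 8 members called by edgeR, 4 at an unadjusted p under 0.05 (all lower) and 1 by DESeq2 (lower). Their median was -0.23 over the 7 members at the count minimum and -0.19 over all 8. *Hspa1a* followed the replicate number, with 97.6, 49.9 and 1.79 CPM in row >3 and 118, 56.6 and 2.16 CPM in border libraries.

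Of 39 DNA replication genes, 8 fell, none rose and 31 were not called (median log2 fold change -0.39), and of 35 mitosis genes, 8 fell, none rose and 27 were not called (median -0.35). All 35 mitosis estimates and 38 of the 39 replication estimates were below 0. No member of either list was called without border replicate 1 or without border replicate 3. Without border replicate 2 it was 1 replication and 3 mitosis genes, without row >3 replicate 3 none and 2, without centre replicate 1 15 and 17, and without centre replicate 2 or 3 2 and 3. The proliferation marker *Mki67* had 1428, 1587 and 1386 CPM in border and 1109, 1414 and 1082 CPM in row >3 libraries (log2 fold change -0.30 ± 0.06, adjusted p = 0.0299). The groups overlapped, since row >3 replicate 2 lay above border replicate 3, and the fall was thus seen within pairs. *Top2a*, a topoisomerase of dividing cells, had 488, 557 and 495 CPM against 301, 437 and 342 CPM (log2 fold change -0.52 ± 0.08, adjusted p = 0.00599). The centromere protein gene *Cenpf* changed by -0.49 ± 0.08, the kinase gene *Cdk1* by -0.40 ± 0.09, *Dtl*, which marks replication factors for destruction, by -0.70 ± 0.13, and the polymerase genes *Pola1* and *Pole* by -0.58 ± 0.11 and -0.57 ± 0.13 (adjusted p = 0.00722, 0.0383, 0.0162, 0.0149 and 0.0326). Of the helicase genes, *Mcm5*, *Mcm7* and *Mcm10* fell by 0.49, 0.38 and 0.46 on the log2 scale (adjusted p = 0.0261, 0.0246 and 0.0475).

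Cell cycle regulators of G1 pointed in both directions, with 2 of 15 higher and 1 lower (median -0.07 over the 14 members at the count minimum). None was called without border replicate 1, border replicate 3 or row >3 replicate 3, 1 without border replicate 2, centre replicate 2 or centre replicate 3, and 7 without centre replicate 1. *Cdkn1a*, which encodes the cell cycle inhibitor p21, had 41.6, 22.7 and 29.1 CPM in row >3 and 16.5, 18.2 and 18.3 CPM in border libraries (log2 fold change 0.79 ± 0.17, adjusted p = 0.0301), and the antiproliferative gene *Tob1* changed by 0.41 ± 0.09 (adjusted p = 0.0231). *Cdkn1b* was level (0.01 ± 0.09, adjusted p = 1). *Cdkn1c*, the imprinted inhibitor p57, had 31.2, 10.7 and 10.7 CPM in border and 11.2, 8.24 and 9.06 CPM in row >3 libraries (adjusted p = 0.0723), with border replicate 1 alone above the rest. Ribosome biogenesis genes had 5 of 24 lower and none higher (median -0.21): *Ncl* and *Npm1*, which encode abundant nucleolar proteins, changed by -0.44 ± 0.06 and -0.42 ± 0.06 (adjusted p = 0.00309 and 0.00486), and *Nop56*, *Gnl3* and *Mybbp1a* fell by similar amounts. None of the 24 was called without border replicate 1 or 3, 2 without border replicate 2, row >3 replicate 3 or centre replicate 3, and 3 without row >3 or centre replicate 2.

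Of the Notch genes, 3 receptors fell and 2 Delta ligands rose. *Notch1* had 193, 112 and 114 CPM in border and 71.2, 70.6 and 64.0 CPM in row >3 libraries (log2 fold change -0.99 ± 0.12, adjusted p = 0.00231). *Notch2* and *Notch3* changed by -0.80 ± 0.16 and -1.39 ± 0.29 (adjusted p = 0.0179 and 0.0242). *Dll1* had 59.5, 43.0 and 41.8 CPM in row >3 and 36.8, 28.0 and 29.7 CPM in border libraries (log2 fold change 0.60 ± 0.13, adjusted p = 0.0274), and *Dll4* 49.9, 33.5 and 34.4 CPM against 25.7, 22.1 and 26.4 CPM (log2 fold change 0.66 ± 0.13, adjusted p = 0.0175). These were the called genes among 19 of the Notch list, of which 1 (lower) was called without each border library in turn or without centre replicate 2, 2 without centre replicate 3 and 3 without row >3 replicate 1 or 3, and *Hes1*, the target gene that represses *Atoh1*, was estimated at -0.47 ± 0.12 (adjusted p = 0.0547).

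Among 18 Eph receptors and ephrins, 1 rose and 1 fell, and the rise was not called without border replicate 1 or 3. Over all genes at the count minimum, 3.32% rose and 2.26% fell, so 1 call each way says little about the list. *Efnb2*, a ligand for EphB receptors, had 76.4, 53.5 and 71.3 CPM in row >3 and 34.0, 38.6 and 43.3 CPM in border libraries (log2 fold change 0.79 ± 0.12, adjusted p = 0.00556), opposite to its receptor gene *Ephb3*. *Efnb1* was estimated at 0.29 ± 0.10 (adjusted p = 0.169). Of 24 genes of the BMP and TGF-beta pathways, none was called by edgeR, 3 had an unadjusted p under 0.05 (all higher) and 1 was called by DESeq2, with a median of -0.02. The receptor genes *Bmpr1a* and *Bmpr2* had 66.9, 86.8 and 89.7 CPM against 60.4, 80.9 and 90.4 CPM and 76.3, 86.9 and 92.6 CPM against 78.3, 75.5 and 85.7 CPM (log2 fold changes 0.08 ± 0.08 and 0.09 ± 0.08). The BMP target *Id3* had 20.4, 6.36 and 10.6 CPM against 6.65, 7.71 and 7.52 CPM, with row >3 replicate 1 alone far above the rest (adjusted p = 0.192), and *Id1* overlapped between the groups.

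Of 25 transcription factors of differentiation, 2 rose, 1 fell and 22 were not called (median 0.17), and 12 had an unadjusted p under 0.05, 10 of them higher. With 3.32% of all genes at the count minimum higher and 2.26% lower, these few calls say little about the list. Of the 25, 1 was called without border replicate 1 and none without border replicate 3. *Klf4*, a factor of goblet and surface cells that restrains growth, had 241, 168 and 278 CPM in row >3 and 118, 118 and 158 CPM in border libraries (log2 fold change 0.80 ± 0.12, adjusted p = 0.00492). *Tfcp2l1*, a grainyhead-like family factor, had 370.3, 317 and 325 CPM against 227, 219 and 223 CPM (log2 fold change 0.60 ± 0.07, adjusted p = 0.0019). The vitamin D receptor gene *Vdr* fell (-0.33 ± 0.07, adjusted p = 0.0285), and the intestinal identity genes *Hnf4a*, *Cdx1* and *Cdx2* were estimated at 0.12 ± 0.06, 0.36 ± 0.09 and 0.26 ± 0.08 (adjusted p = 0.371, 0.0659 and 0.111).

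Of 20 antimicrobial and microbial sensing genes, 2 rose and 2 fell (median 0.11 over the 17 members at the count minimum). None was called without border replicate 1 or 3, and 2 without border replicate 2 or row >3 replicate 3. Besides *Lypd8*, *Pigr*, which carries immunoglobulin A into the lumen, had 5141, 3700.4 and 4670.1 CPM in row >3 and 3953, 3187 and 3759 CPM in border libraries (log2 fold change 0.30 ± 0.05, adjusted p = 0.0103). The sensor gene *Nlrp6* fell from 356, 299 and 300.3 CPM to 217, 222 and 212 CPM (log2 fold change -0.55 ± 0.07, adjusted p = 0.00304). *Nos2*, an inducible nitric oxide synthase gene, fell (-1.56 ± 0.38, adjusted p = 0.0484) with 8.95, 0.899 and 1.27 CPM in border and 2.33, 0.785 and 0.485 CPM in row >3 libraries, so that replicate 1 held most of its counts. Immediate-early genes had 2 of 18 higher (median 0.24), *Atf3* (0.39 ± 0.09, adjusted p = 0.0378) and *Dusp1* (0.40 ± 0.09, adjusted p = 0.0431), with none called without border replicate 1 or 3, row >3 replicate 3 or centre replicate 2 or 3, 1 without border replicate 2 and 4 without centre replicate 1. As with *Cyp51*, the reads of *Dusp1*, *Trpm5*, *Il17rb*, *Mcm7*, *Nop56* and *Gnl3* are uncertain because each overlaps a gene on the opposite strand. None of 7 MHC class II genes and none of 7 distal Hox and regional genes was called by edgeR or DESeq2, with 5 and 1 at an unadjusted p under 0.05. *Cd74*, the class II invariant chain gene, had 21.9, 1.99 and 7.4 CPM in border and 7.50, 2.04 and 4.56 CPM in row >3 libraries (adjusted p = 0.0655).

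Whether the step differed between the sites was tested as the difference between the LI and the SI change from border to row >3. Of 26717 genes, 0 (0%) were called by edgeR, 1699 had an unadjusted p under 0.05, and 185 were called by DESeq2. Without the SI libraries numbered 3, edgeR called 391 genes, of which 306 had the lower and 85 the higher change in the LI. The LI pairs of *Car4* changed by -0.66, -0.29 and -0.33 on the log2 scale and the SI pairs by 3.99, 2.35 and -0.04, so that SI replicate 3 alone stayed with the LI. The difference was -2.12 with all libraries (adjusted p = 0.803) and -3.56 ± 0.34 without the SI libraries numbered 3 (adjusted p = 5.50e-05). *Papss2* rose at both sites and differed by -0.83 with all libraries (adjusted p = 0.859) and by -1.35 ± 0.16 without these libraries (adjusted p = 2.36e-04), and *Hspa5* differed by -0.66 (adjusted p = 0.526) and -0.96 ± 0.11 (adjusted p = 3.08e-04). *Cdca7*, a stem cell list member, changed by -1.65 in the SI, and its difference between the sites was 1.04 with all libraries (edgeR adjusted p = 0.38) and 1.13 ± 0.21 without the SI libraries numbered 3 (edgeR adjusted p = 0.00891). With all 18 libraries, edgeR called no difference between the sites for any gene named above, and these genes were not compared with the 185 of DESeq2.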

How the data were processed

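Raw gene counts of 18 libraries of EPCAM-positive, GFP-sorted cells were deposited by the authors, who trimmed reads with Skewer, aligned them to mm10 with STAR and tested with DESeq2. The libraries were made with a stranded kit, but the sources used here give neither the strand setting of the counting nor the annotation release. A second deposited table, of normalized values, was not used. Groups came from the sample titles. Members and lists were chosen with earlier results of these data known.

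Genes with a mean count above 0 in the 9 LI libraries were fitted with edgeR 4.0.16 (TMM, robust quasi-likelihood test, Benjamini-Hochberg adjustment, threshold 0.05) with group and replicate number. Numbers were taken to pair libraries by the rule set for this comparison, and every same-number correlation exceeded 0.1 (0.479, 0.508 and 0.677). The SI comparison used 18 libraries. Standard errors are the log2 fold change over the root of F. Genes named were the 12 largest changes and the 5 smallest adjusted p values per direction among called genes with at least 30 normalised counts, the same direction in 3 pairs and no clone-number symbol, plus list members; a few genes that the rule names are not reported here. The edgeR and DESeq2 fits of row >3 against border were tested on simulated counts, where edgeR recovered nearly all genes given the larger changes and missed many of those given the smallest. There, all genes had the same dispersion, and each changed gene had the same change in every replicate. The real replicates did not share these settings, so the recovery does not measure missed or false calls in these data. Libraries held 8312093 to 31940965 counts. DESeq2 1.42.0, other scaling, filters, fits without the block and fits without single libraries were alternatives.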

Additional observations from a re-analysis of the deposited data

Results flagged for a closer look

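*Col1a1*, a fibrillar collagen gene of stromal cells, had pairs of opposite sign at the sites, although the difference between them did not pass. The LI pairs changed by -4.22, -0.25 and -0.26 on the log2 scale and the SI pairs by 2.41, 0.19 and 0.22, with the largest values in replicate 1 of each site. The LI value of -3.64 became -0.66 without row >3 replicate 1 and -1.86 without border replicate 1, the SI change did not pass (edgeR adjusted p = 0.753), and LI pairs 2 and 3 rested on at most 0.257 CPM. The fitted difference was -5.17 (edgeR adjusted p = 0.546), and *Col1a1* was not among the 391 genes called without the SI libraries numbered 3.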

How the results depend on the processing

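The count of 685 called genes between LI row >3 and border cells moved with the design more than with the scaling. It was 24 in the fit without the replicate block, 18 with 18 libraries, 0 with the 6 compared libraries and the block and 6 without it, and 0 in a test against a log2 fold change over 1 (446 at an unadjusted p under 0.05). DESeq2 gave 1341 with 9 libraries, 833 with the 6 and, chosen after seeing the data, 247 with 18, the legacy quasi-likelihood fit 1402 and no filter 423. Leaving out single libraries gave 20 to 1072, and leaving out all libraries of a replicate number 1714, 306 and 122. For the difference between steps (7), it was 0 without the block, with 18 libraries and with no filter, 75 with DESeq2, 37 with the legacy fit, 0 to 16 without single libraries, and 45, 0 and 0 without a replicate number. For the difference between sites (0), it was 391 without the SI libraries numbered 3, 185 with DESeq2, 1 with library size only, and 0 to 257 without single libraries, with 10 without SI border replicate 3 and 257 without SI row >3 replicate 3. The cause was not tested. The 24 settings reuse all or most of the libraries that gave the calls, so a kept sign is no separate support for a call. Of 428 genes followed, the 148 called kept their sign in all 3549 values under these settings. Their calls were kept less often: by 0 with the 6 libraries and the block, 4 with 18 libraries and 13 without the block. It was 16 without border replicate 3 and 143 with DESeq2 on the 9 libraries. The uncalled genes had the opposite sign in 146 of 6720 values, and 376 of their values passed the threshold. With 3 libraries a side, a gene that was not called is not thereby shown to be unchanged.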
